A study of Mus musculus with 8 samples.

Results

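Genes that make reactive oxygen species in the colonic epithelium, and genes whose enzymes remove superoxide and hydrogen peroxide, were followed from the surface to the base of the mouse colonic crypt. The 10 genes were taken by symbol: Nox1, Duox2, Gpx1, Gpx2, Gpx4, Cat, Sod1, Sod2, Prdx1 and Prdx6. A probe was listed for 7 of them among the 17711 genes named on the array, and 5 of these 7 were bright enough to be tested, out of 9494 genes tested in all. No probe of Duox2, Gpx4 or Prdx6 was listed in the annotation used, and these genes were not analysed here. The gene for glutathione peroxidase Gpx2 had the most negative mean difference between surface and crypt base of all 9494 genes, with a lower signal at the surface in 4 of 4 pairs (43.7% of all genes moved one way in every pair), but its spread at the surface was wide and it did not pass the test. The peroxiredoxin gene Prdx1 fell at the surface and the superoxide dismutase gene Sod1 rose slightly. Sod2 and Gpx1 did not pass the test, and Nox1 and Cat gave signals at or near background.

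From each of 4 mice, epithelium of the surface and of the crypt base was cut from the distal colon by laser capture microdissection, and its RNA was measured on Illumina bead arrays after 2 amplification steps. All mice were male wild type C57BL/6 animals of 10 to 12 weeks, with no treatment named, and the 2 groups of 4 samples, surface and crypt base, are defined by where along the crypt the cells were cut. Values are the deposited log2 signals, and a change is surface minus crypt base on that scale. Each change is given ± its SE from the limma fit, which is not the SE of the pair differences alone. A gene passed the test at a Benjamini-Hochberg adjusted p under 0.05 in limma, with the replicate number as a block, adjusted over all 9494 genes. Samples of the same number are called a pair, although the labels do not say that the number marks the mouse. Signals of different probes depend on the probe and are not compared with each other.

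Epithelial cells of the colon make superoxide with the NADPH oxidase Nox1, and hydrogen peroxide with the dual oxidase Duox2, at the membrane that faces the lumen. Superoxide dismutases turn superoxide into hydrogen peroxide, which catalase breaks down in peroxisomes and which glutathione peroxidases and peroxiredoxins reduce at the expense of glutathione or thioredoxin. Gpx1, Gpx2 and Gpx4 are selenoproteins, and Gpx2 is known as the glutathione peroxidase of the gastrointestinal epithelium.

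The samples carried the markers of their labels. Of 5 surface colonocyte markers 4 were tested and all 4 rose at the surface, and of 5 crypt base markers 3 were tested and all 3 fell, while Krt20 and Lgr5 were detected on none of the arrays. All 7 epithelial markers were tested, 4 rose and none fell. Beside this and the marker counts that follow, 12.1% of all genes tested rose and 10.1% fell. Markers of other cell types were detected too. The summed linear signal of 7 smooth muscle markers ranged over the samples from 2157 to 12084 at the surface and from 6628 to 25603 at the crypt base, and each marker was detected on at least 1 array. Of the 6 smooth muscle markers tested none passed in limma (4 had an unadjusted p under 0.05, as had 36.5% of all genes tested), with a median change of -0.83, and the brightest, Acta2 and Actg2, had changes of -0.84 ± 0.30 and -1.23 ± 0.37. For leukocyte markers the sums were 1970 to 6426 at the surface and 1998 to 5147 at the crypt base, with 0 of 5 passing in limma (1 at an unadjusted p under 0.05) and Ptprc detected on no array. Goblet cell markers summed to 26978 to 40521 at the surface and to 13760 to 33946 at the crypt base, and of 6 tested 2 rose and 0 fell, namely Tff3 by 0.91 ± 0.09 (adjusted p = 0.00739 in limma) and Clca1 by 0.98 ± 0.24 (adjusted p = 0.0345). For fibroblast markers the sums were 1824 to 2456 at the surface and 1578 to 3121 at the crypt base, with a median change of -0.03, and of 6 tested Col3a1 alone passed, with a rise of 0.55 ± 0.12 (adjusted p = 0.0278 in limma). Tff3 and Col3a1 were named after their values were seen. Of 3 macrophage and neutrophil, 4 endothelial and 3 red blood cell markers tested, none passed in limma (1, 1 and 0 had an unadjusted p under 0.05). The part of these cells in the changes given here was not tested. One array stood apart. Among genes with a detection p under 0.05 on all 8 arrays, 297 of 7487 had a signal under background (5.52 on the log2 scale) in surface 4, against 74 to 123 in the other 7 samples. Gpx2 is one of the 297.

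Of the oxidase genes Nox1 and Duox2 only Nox1 had a probe, and its signals were near the limit of detection. The brighter of 2 probes of Nox1 had log2 signals of 4.92, 5.81, 5.38 and 5.18 in surface samples 1 to 4, against 5.56, 5.76, 5.41 and 5.41 in crypt base samples 1 to 4. The groups overlapped, 3 of 8 signals exceeded the background level of 5.52, and 3 of 8 arrays had a detection p under 0.05. The other probe ranged from 4.71 to 5.03 at the surface and from 4.86 to 5.05 at the crypt base, and was detected on no array. Signals this near background do not tell a low level of Nox1 from probes that failed, and no fold is given.

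Several partners of the oxidases were measured above background. Duoxa2, the maturation factor that brings Duox2 to the cell surface, had log2 signals of 10.92, 11.47, 10.92 and 7.60 at the surface, against 8.94, 10.23, 9.42 and 7.31 at the crypt base. The surface sample was the higher in all 4 pairs, but the groups overlapped because both samples numbered 4 were low. Duoxa2 rose by 1.25 ± 0.26 (SE of the limma fit, 4 pairs), or 2.38-fold (adjusted p = 0.0226 in limma). In such bulk samples a difference in the number of cells with a transcript and one in transcript per cell cannot be told apart. Without the replicate block the adjusted p was 0.426, and with the number as a random block it was 0.206. The pair differences of Duoxa2 were 1.98, 1.23, 1.49 and 0.29, so the smallest rise belonged to the pair with the lowest levels.

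Nox1 works with the organizer Noxo1, the activator Noxa1, the membrane subunit Cyba and the small GTPase Rac1. The signal of Noxo1 averaged 9.77 ± 0.21 at the surface and 9.74 ± 0.29 at the crypt base (SD, n = 4 each), with a change of 0.02 ± 0.10 (adjusted p = 0.902 in limma). Its second probe changed by -0.01 ± 0.12. Noxa1 had log2 signals of 6.71, 7.26, 6.88 and 4.55 at the surface, against 8.15, 7.32, 7.62 and 7.61 at the crypt base. The groups did not overlap, and the lowest value was again surface 4, under background. Its change of -1.32 ± 0.46 did not pass (adjusted p = 0.0893 in limma). Cyba had a change of -0.31 ± 0.14 (adjusted p = 0.166). Rac1, which has many other roles, rose by 0.34 ± 0.08 (adjusted p = 0.0287 in limma, and 0.129 without the replicate block). Of the 5 partner genes tested, out of 9 listed, 2 rose and 0 fell, with a median change of 0.02 against -0.01 over all genes tested. Across all 9494 genes 12.1% rose and 10.1% fell, which together is 22.2%. Of 3 tested genes of the phagocyte oxidase of leukocytes, 0 passed in limma and 0 had an unadjusted p under 0.05, and Cybb, its catalytic subunit, averaged 6.23 ± 0.25 at the surface and 6.19 ± 0.22 at the crypt base (SD, n = 4 each).

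**Figure D1:**
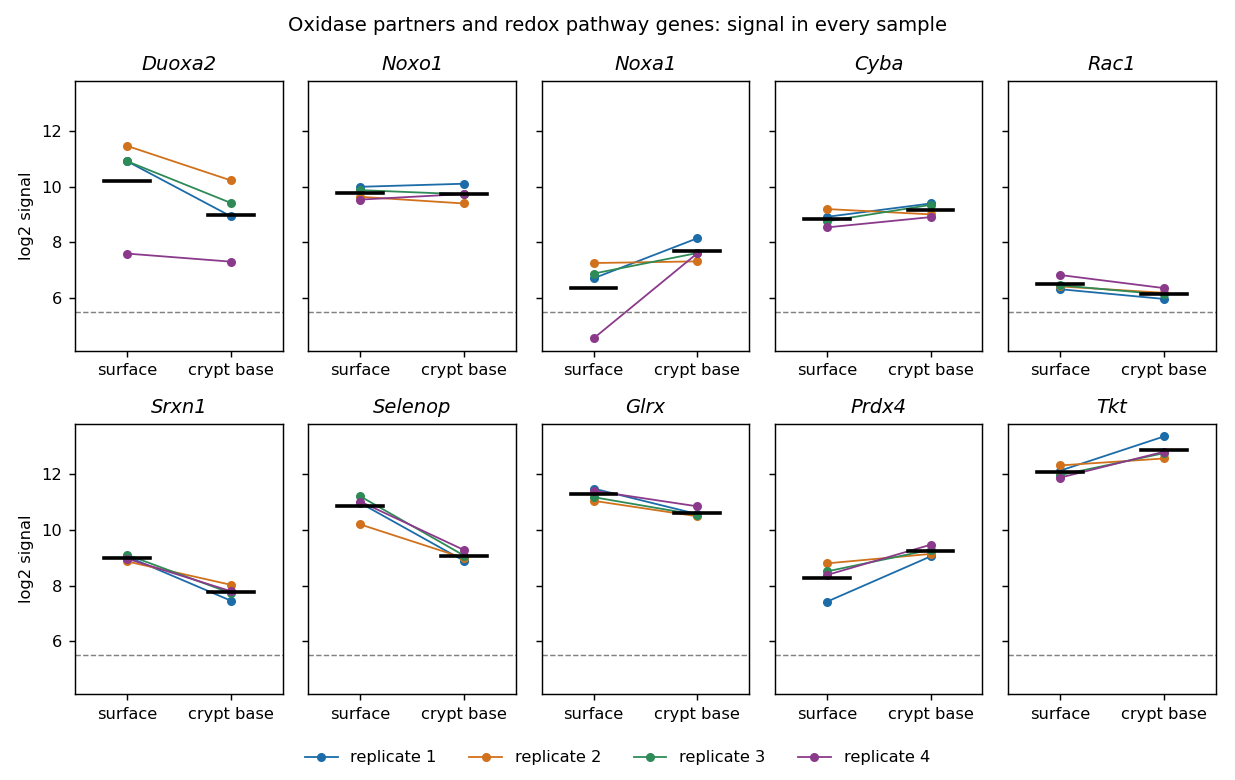
Log2 signal (y axis) of 5 oxidase partners and 5 other redox genes in surface and crypt base samples. Points are single samples joined by replicate number, black bars are group means and the dashed line is the background level of 5.52. Duoxa2 was low in both samples numbered 4 (7.60 at the surface, 7.31 at the crypt base), and Noxa1 in surface 4 (4.55) lay under background.

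The superoxide dismutases had small differences along the crypt. Sod1, the copper and zinc enzyme of the cytosol, had log2 signals of 11.56, 11.56, 11.61 and 11.86 at the surface, against 11.30, 11.34, 11.36 and 11.53 at the crypt base. Every surface value lay above every crypt base value, by a narrow margin. Sod1 rose by 0.26 ± 0.07 (SE of the limma fit, 4 pairs, 95% confidence interval 0.09 to 0.44), or 1.20-fold (adjusted p = 0.0466 in limma). The call was borderline and was lost without the replicate block (adjusted p = 0.110). Of 2 dimmer probes of Sod1, one lay close to background in all samples, between 5.24 and 5.64, and changed by -0.05 ± 0.11, and the other was detected on no array. With both probes that passed the detection filter averaged, the change was 0.11 (adjusted p = 0.383).

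Sod2, the manganese enzyme of mitochondria, had log2 signals of 9.96, 9.95, 9.73 and 9.81 at the surface, against 9.64, 9.64, 9.78 and 9.68 at the crypt base. The surface sample was the higher in 3 of 4 pairs and the groups overlapped. The change of Sod2 was 0.18 ± 0.09 (95% confidence interval -0.05 to 0.40, adjusted p = 0.225 in limma). Ccs, the copper chaperone of Sod1, had a change of 0.00283 ± 0.11.

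Of the glutathione peroxidases, Gpx2 and Gpx1 were measured. Gpx2 had log2 signals of 8.55, 10.66, 10.09 and 4.59 in surface samples 1 to 4. In crypt base samples 1 to 4 its signals were 11.46, 11.53, 11.53 and 11.70. The crypt base values lay within 0.24 of each other, whereas the surface values spanned 6.06, and the groups did not overlap. The mean was 8.47 ± 2.73 at the surface and 11.55 ± 0.10 at the crypt base (SD, n = 4 each). The change of -3.08 ± 0.99 (95% confidence interval -5.50 to -0.67) had an unadjusted p of 0.0204 and an adjusted p of 0.0736 in limma. The pair differences were -2.91, -0.87, -1.44 and -7.11.

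Surface 4 decided both the size of the Gpx2 difference and its test. Its signal of 4.59 was under background, although all 8 detection p-values of the probe were under 0.05, so this value and the detection call do not go together. Without replicate 4 the change was -1.74 and passed the test (adjusted p = 0.0457 in limma), and it ranked second lowest of the 9494 genes. With surface 4 alone left out and the replicate number as a random block, the change was -1.78 (adjusted p = 0.0273) and ranked lowest. Glrx5, a mitochondrial glutaredoxin, had a similar pattern, with 4.60 in surface 4 against 9.12 to 9.69 in the other surface samples and 9.69 to 10.04 at the crypt base. Its second probe, close to background, changed by -0.10 ± 0.07. No second probe of Gpx2 was listed.

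**Figure D2:**
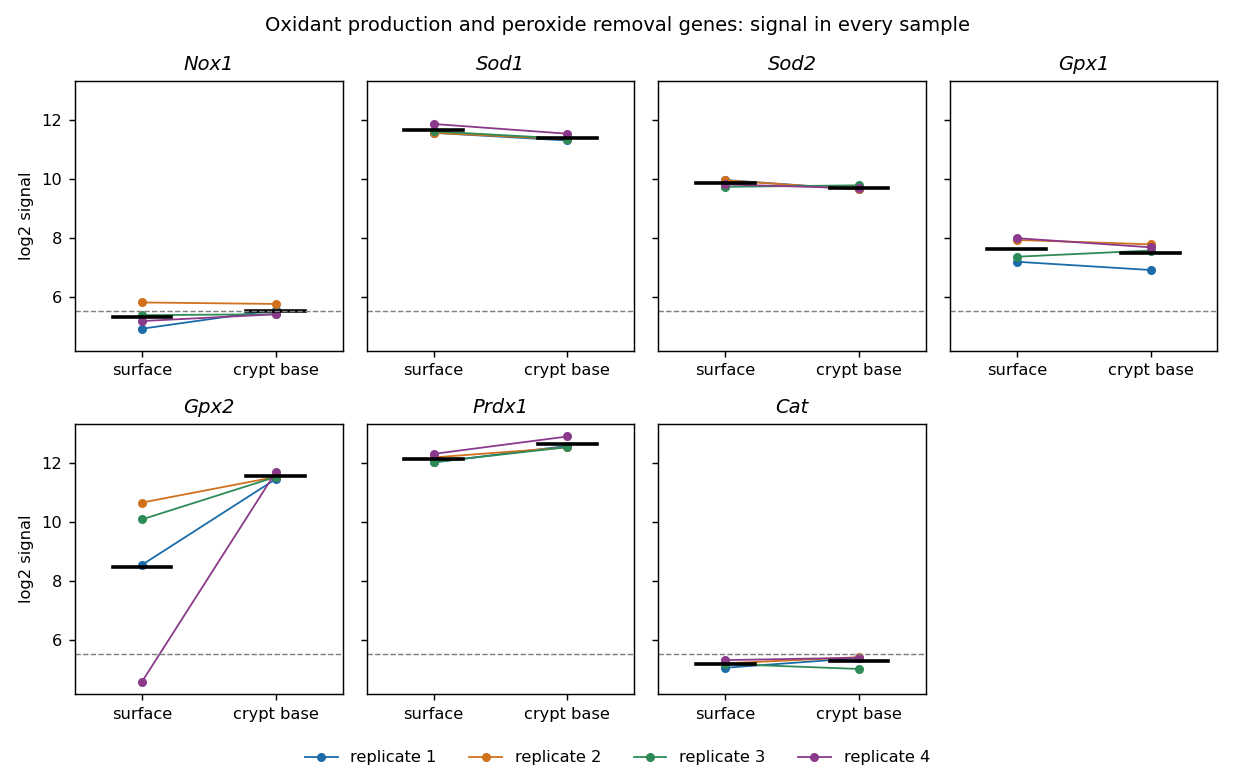
Log2 signal (y axis) of the 7 genes with a probe, in surface and crypt base samples joined by replicate number. Black bars are group means and the dashed line is the background level of 5.52. Gpx2 was tight at the crypt base (11.46 to 11.70) and spread at the surface (4.59 to 10.66), Prdx1 was lower at the surface in all 4 pairs, and Nox1 and Cat lay at or near background.

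Gpx1, the glutathione peroxidase found in most cells, had log2 signals of 7.19, 7.93, 7.36 and 7.99 at the surface, against 6.91, 7.78, 7.57 and 7.68 at the crypt base. The groups overlapped almost fully and samples of the same number lay close together. The change of Gpx1 was 0.13 ± 0.11 (95% confidence interval -0.13 to 0.40, adjusted p = 0.433 in limma), with the surface sample higher in 3 of 4 pairs. Among the other glutathione peroxidases, Gpx3, a secreted form, rose by 0.53 ± 0.14 (adjusted p = 0.0418 in limma), and Gpx8 had a change of -0.12 ± 0.11 close to background. The groups of Gpx3 overlapped. Its call was lost in limma with an offset of 50 on the linear signal (adjusted p = 0.0503) and without replicate 1, 3 or 4. It was also lost with surface 4 left out and a random block (0.0640).

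Prdx1, a cytosolic peroxiredoxin that passes electrons from thioredoxin to hydrogen peroxide, had log2 signals of 12.02, 12.19, 12.03 and 12.31 at the surface, against 12.58, 12.53, 12.54 and 12.90 at the crypt base. All surface values lay below all crypt base values. The log2 signal of Prdx1 fell by 0.50 ± 0.08 (SE of the limma fit, 4 pairs, 95% confidence interval -0.69 to -0.31), which is 1.42-fold lower at the surface (adjusted p = 0.0122 in limma). It passed without the replicate block too (adjusted p = 0.0240), but not without replicate 1 (0.0670) or replicate 4 (0.0528). In the same samples the median change of smooth muscle markers was -0.83. Acta2 and Actg2 were higher at the surface in 1 of 4 pairs, pair 3, by 0.38 and 0.23, where Prdx1 had a difference of -0.51. The part of smooth muscle in the fall of Prdx1 was not tested.

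Cat, which encodes catalase, was not measured above background. Its probe ranged from 5.06 to 5.32 at the surface and from 5.02 to 5.42 at the crypt base and was detected on none of the 8 arrays. Such signals do not tell a low level of Cat from a probe that failed, and no fold is given. Of 19 genes of peroxisome assembly and import, the organelle that holds catalase, 12 were tested. Of these 0 passed in limma and 4 had an unadjusted p under 0.05 (33.3%, against 36.5% of all genes tested), and their median change was -0.01.

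Of the 5 tested genes, 1 rose and 1 fell, against 22.2% of all genes tested in either direction. The groups did not overlap for Gpx2, Prdx1 and Sod1, which is 3 of 5, against 19.3% of all genes. Among all genes 9.72% were separated in this way with higher and 9.59% with lower surface values. With so few genes these shares give no more than the single values above. Without replicate 1 no gene on the array passed in limma (lowest adjusted p = 0.05002, with 2512 genes at an unadjusted p under 0.05, Prdx1 and Sod1 among them), and this holds for every call given here. Of the 17 calls among the partner and pathway genes described here, 7 were kept without replicate 3 and 7 without replicate 4.

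**Figure D3:**
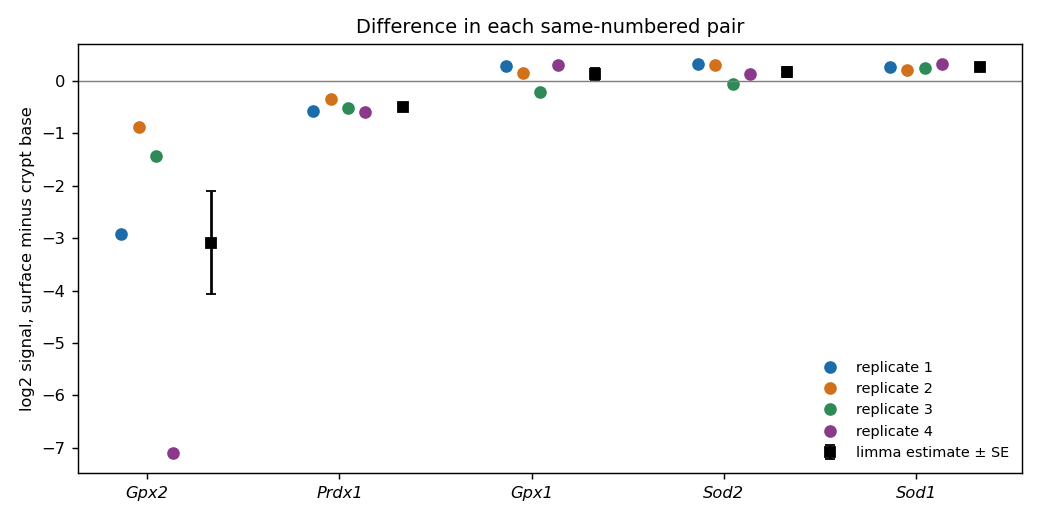
Difference in log2 signal between surface and crypt base (y axis) for each same-numbered pair (coloured points) and the limma estimate ± SE (black squares) of the 5 genes tested. The pair differences of Gpx2 ran from -7.11 to -0.87, those of Prdx1 from -0.59 to -0.34 and those of Sod1 from 0.22 to 0.33.

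The 250 bases before the RefSeq start of Gpx2, Prdx1 and Sod1 are shown because these are the genes whose groups did not overlap. The table held promoters of 9 of the 10 genes, all but Prdx6. Each was searched on both strands for the antioxidant response element bound by Nrf2 (TGACNNNGC) and for the core of the site bound by TCF factors such as Tcf7l2 (CTTTG followed by A or T at each of the next 2 positions). Capitals mark the matches, which do not overlap, and the strand of each gene is given. The Gpx2 window is chr12:76795555-76795804 (minus strand, GRCm38.p6), that of Prdx1 chr4:116685349-116685598 (plus strand) and that of Sod1 chr16:90220512-90220761 (plus strand).
Gpx2: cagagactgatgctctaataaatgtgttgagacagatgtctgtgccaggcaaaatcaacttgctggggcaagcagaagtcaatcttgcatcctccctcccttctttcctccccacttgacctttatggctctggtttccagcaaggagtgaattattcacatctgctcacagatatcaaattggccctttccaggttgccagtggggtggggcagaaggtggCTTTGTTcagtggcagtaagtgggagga
Prdx1: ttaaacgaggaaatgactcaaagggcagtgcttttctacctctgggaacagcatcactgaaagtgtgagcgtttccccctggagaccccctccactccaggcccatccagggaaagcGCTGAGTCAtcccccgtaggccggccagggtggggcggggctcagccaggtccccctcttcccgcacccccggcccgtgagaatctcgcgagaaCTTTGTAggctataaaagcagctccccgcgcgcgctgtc
Sod1: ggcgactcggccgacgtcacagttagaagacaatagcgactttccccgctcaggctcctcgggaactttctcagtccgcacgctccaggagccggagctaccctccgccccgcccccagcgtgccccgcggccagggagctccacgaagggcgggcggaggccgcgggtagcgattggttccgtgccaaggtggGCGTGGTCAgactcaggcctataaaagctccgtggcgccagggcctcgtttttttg
Prdx1 held an antioxidant response element on the reverse strand, 133 to 125 bases before the start, and a TCF word 39 to 33 bases before it. Gpx2 held a TCF word 28 to 22 bases before the start and no antioxidant response element. Sod1 held an antioxidant response element on the reverse strand, 56 to 48 bases before the start. Neither motif was found in these windows of the other 6 genes. The 9 genes had 12 promoters, since Gpx4 had several. Counted by promoter, the antioxidant response element was found in 2 of these 12 and in 10.2% of all 32851. The TCF words were found in 2 of the 12 and in 14.8% of all promoters. A match of letters is not evidence that a factor binds there.

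Several genes whose products act on peroxiredoxins, thioredoxin and protein thiols rose at the surface. Srxn1, the sulfiredoxin that restores overoxidized peroxiredoxins such as Prdx1, had log2 signals of 9.05, 8.87, 9.11 and 8.97 at the surface, against 7.46, 8.03, 7.73 and 7.80 at the crypt base. The groups were far apart relative to their spread. Srxn1 rose by 1.24 ± 0.13 (2.37-fold, adjusted p = 0.00749 in limma), and its 2 other probes rose by 0.67 ± 0.10 and 0.38 ± 0.09 in the fit over all probes (adjusted p = 0.0123 and 0.0377). The glutaredoxin gene Glrx rose by 0.67 ± 0.09 and Txnip, whose product binds and inhibits thioredoxin, by 0.84 ± 0.12. Glrx had a detection p under 0.05 on only 5 of 8 arrays and Srxn1 on 7 of 8, although both lay above background in every sample. As for Gpx2, signal and detection call do not go together there. The methionine sulfoxide reductase gene Msrb1, named after its values were seen, rose by 0.32 ± 0.07. Of 13 genes of the thioredoxin system tested, 4 rose and 0 fell, against 12.1% and 10.1% of all genes, and 2 goblet cell markers rose in the same samples. The list median was -0.01, that of all genes tested. With only genes detected on all 8 arrays, 2 of 8 on this list rose and 0 fell, against 1006 and 870 of all 7487. Thioredoxin reductases 1 to 3 did not pass, with changes of 0.24 ± 0.09 (Txnrd1), -0.19 ± 0.08 (Txnrd2) and -0.06 ± 0.08 (Txnrd3).

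Of the genes of the pentose phosphate pathway and of NADPH formation, 4 fell at the surface. No probe of G6pdx or Me1 was listed and Pgd was detected on no array, so these NADPH-forming enzyme genes were not measured. Tkt, the transketolase of the pentose phosphate pathway, had log2 signals of 12.13, 12.32, 11.97 and 11.88 at the surface, against 13.36, 12.57, 12.76 and 12.81 at the crypt base. The groups did not overlap. Tkt changed by -0.80 ± 0.16 (1.74-fold lower at the surface, adjusted p = 0.0206 in limma). Pgls, of the oxidative branch of that pathway, changed by -0.76 ± 0.17, with -0.02 ± 0.07 for a second probe near background. The NADPH-forming isocitrate dehydrogenase genes Idh2 and Idh1 changed by -0.60 ± 0.16 and -0.47 ± 0.10, and a dim second Idh1 probe by -0.13 ± 0.09. Idh1 was named after its values were seen. The call of Idh2 was lost in limma with cyclic loess normalization (adjusted p = 0.0520) and with no detection filter (0.0561). It was also lost with an offset of 50 on the linear signal (0.0589). The call of Idh1 was lost with all its detected probes averaged (adjusted p = 0.0542 in limma). Of 10 genes of glutathione and NADPH supply tested, 0 rose and 4 fell, against 12.1% and 10.1% of all genes, with a median change of -0.06. The 4 that fell belong to the pentose phosphate pathway or form NADPH, as do Taldo1 and Nnt, which had changes of 0.04 ± 0.08 and -0.15 ± 0.09 and did not pass. The glutathione synthesis genes Gclm and Gss had changes of 0.03 ± 0.10 and 0.12 ± 0.09 and the glutathione reductase gene Gsr one of 0.36 ± 0.21, none of which passed. All 4 calls were lost without replicate 1, and also without replicate 4, where Tkt had an adjusted p of 0.0662.

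**Figure D4:**
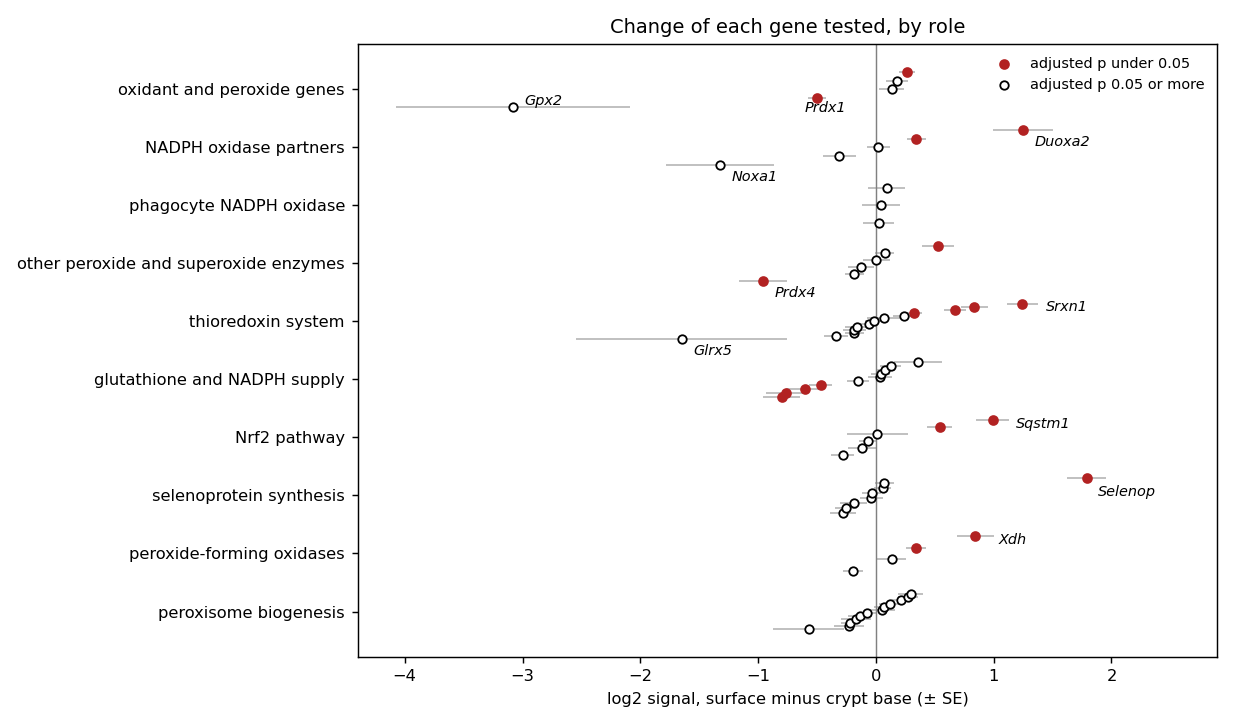
Change in log2 signal, surface minus crypt base, with its SE (x axis) of each gene tested, by role (y axis). Filled points passed at an adjusted p under 0.05. Selenop had a change of 1.79, Srxn1 of 1.24 and Duoxa2 of 1.25, while 4 genes of glutathione and NADPH supply fell and none of the 12 peroxisome genes passed.

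Among the remaining peroxiredoxins, Prdx4, of the endoplasmic reticulum, had log2 signals of 7.42, 8.80, 8.51 and 8.38 at the surface, against 9.05, 9.14, 9.29 and 9.47 at the crypt base. It fell in the same direction as Prdx1, by 0.96 ± 0.20 on the log2 scale (1.95-fold lower at the surface, adjusted p = 0.0237 in limma, and 0.0507 without the replicate block). Prdx2 and the mitochondrial Prdx3 had changes of 0.07 ± 0.08 and -0.18 ± 0.08 and did not pass. Of 6 other peroxide and superoxide enzymes tested, 1 rose and 1 fell, against 12.1% and 10.1% of all genes.

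The selenium carrier Selenop, a secreted selenoprotein, had the largest rise of the redox genes listed. Its log2 signals were 10.97, 10.20, 11.21 and 11.02 at the surface, against 8.89, 8.99, 9.08 and 9.28 at the crypt base. Selenop rose by 1.79 ± 0.17 (3.46-fold, adjusted p = 0.00739 in limma). Of 8 genes of its list tested, 1 rose and 0 fell, against 12.1% and 10.1% of all genes. The other 7 tested genes of its list, which act in selenium use and selenoprotein synthesis, had changes from -0.28 to 0.07 and none passed.

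Of the Nrf2 pathway, 6 genes were tested, 2 rose and 0 fell, against 12.1% and 10.1% of all genes. Sqstm1, whose product binds Keap1, rose by 0.99 ± 0.14 (adjusted p = 0.00997 in limma) and Mafk, a small partner of Nrf2, by 0.54 ± 0.10 (adjusted p = 0.0190). Mafk had a detection p under 0.05 on 5 of 8 arrays. Its crypt base signals of 5.36, 5.44, 5.54 and 5.43 lay at or near background, so the size of its rise is uncertain. Keap1 had a change of -0.07 ± 0.07, and the classical target Hmox1 one of -0.12 ± 0.12. Nfe2l2, which encodes Nrf2, was detected on 2 of 8 arrays, and Nqo1 on none. Of 14 enzymes that form peroxide, 4 were tested, 2 rose and 0 fell, against the same 12.1% and 10.1%. Xdh, the xanthine oxidoreductase gene, rose by 0.85 ± 0.15 (adjusted p = 0.0163 in limma) and Hao2, a peroxisomal hydroxyacid oxidase gene, by 0.34 ± 0.08 (adjusted p = 0.0345). The call of Hao2 was lost without the replicate block (adjusted p = 0.174) and with the number as a random block (adjusted p = 0.0551). Over the 9 lists of partners and pathway genes, 67 genes were tested, 12 rose and 5 fell, which together is 25.4%, close to the 22.2% of all genes tested.

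The genes most like Sod1 and Prdx1 over the 8 arrays were found by Pearson correlation, as a description in which all points share the contrast between surface and crypt base. For Sod1 they were the intestinal cadherin gene Cdh17 (r = 0.988), Tmem106a (r = 0.984) and Ypel5 (r = 0.983), with changes of 0.51 ± 0.07, 0.48 ± 0.10 and 0.58 ± 0.08. For Prdx1 they were Hcfc1, a transcriptional coregulator (r = 0.984), Rpl36al (r = 0.983) and Mrpl17, of the mitochondrial ribosome (r = 0.977), with changes of -0.57 ± 0.11, -0.18 ± 0.07 and -0.69 ± 0.09. Rpl36al lay near background and did not pass.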

How the data were processed

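Epithelium of the distal colon was measured in 4 surface and 4 crypt base samples on Illumina bead arrays. The authors deposited log2 values of 46632 probes. Per the submitters' processing notes GenomeStudio was used. Its version, the normalization and any background step are not given in the sources used here. The sorted columns of the 8 arrays differed by under 0.01 at 99.0% of ranks, which shows that distributions had been equalized. A second deposited table gives a signal intensity and a detection p-value per probe and array, per the file headers. Its 8 intensity columns could not be matched to labels. They were looked at to find the scale of the log2 values and were not used otherwise. Detection p-values served only as the number of arrays with p under 0.05. The background level of 5.52 is the log2 signal exceeded by as many probe and array pairs as had such a p.

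Probes with 1 gene symbol (29976) named 17711 genes, and each gene took its probe with the highest mean. Genes with a probe detected on 4 or more of the 8 arrays (9494) were tested with limma 3.58.1 in R 4.3.3 (lmFit and eBayes, two-sided, Benjamini-Hochberg), with a fixed block for the replicate number and 3 residual degrees of freedom. Raw signals had been planned for normalization only if not yet normalized. Random blocks used statmod 1.5.0. The code was tested on simulated data. The number of arrays limits the precision. The pairing rests on the design text, which says that each mouse gave both samples. Across genes, deviations of same-numbered samples correlated at 0.45, 0.39, -0.04 and 0.48 for numbers 1 to 4, so the check does not bear it out for number 3.

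The 10 genes, the lists and the tests were chosen with earlier results of these data known. Genes named are the 10 members, the oxidase partners tested, up to 3 passing genes per direction and pathway list with the largest change, up to 2 of the brightest markers of each other cell type, and the 3 genes most correlated with the passing member that rose most and the passing member that fell most. Promoters came from a RefSeq table of GRCm38.p6.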

Additional observations from a re-analysis of the deposited data

Results flagged for a closer look

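In 11 of 148 groups of 4 samples (the genes with a probe and the partner and pathway genes tested, in each region), the highest or lowest sample lay far from the other 3. That is 7.43%, and chance alone gives about 5%. Among the main genes, Sod1 was highest in surface 4 (11.86, next 11.61), Prdx1 highest in crypt base 4 (12.90, next 12.58) and Cat lowest in crypt base 3 (5.02, next 5.39), where all values of Cat are under background. In surface 4, Duoxa2 was low (7.60, next 10.92), as was Glrx5 (4.60, next 9.12), while Prdx2 (6.92, next 6.84) and Secisbp2 (6.59, next 6.11) were high. Txnip was high in surface 1 (11.70, next 11.48) and Xdh low in surface 2 (6.55, next 7.20). At the crypt base, Mafg was high in sample 1 (8.85, next 8.11) and Pex11a low in sample 4 (6.99, next 7.56). Of these 11 flags, surface 4 holds 5. Gpx2 in surface 4 did not meet this limit, since its surface values were spread throughout.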

How the results depend on the processing

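The signs of Gpx1, Gpx2, Prdx1, Sod1 and Sod2 did not change under any of the 15 alternatives. With no replicate block Sod1, with a change of 0.26, missed the threshold (adjusted p = 0.110), and 1267 genes were called against 2110 and 1 of the 10 genes against 2. The Sod1 change of 0.26 also did not pass with no detection filter (adjusted p = 0.0580) or with a trended, robust variance (0.114), nor did 0.11 with all detected probes averaged (0.383), and each of these 3 settings left 1 of the 10 genes called, Prdx1. Gpx2 passed with array weights, at a change of -3.94 (adjusted p = 0.0357). With surface 4 left out and a random block, Gpx2 passed at -1.78 (0.0273), Sod1 did not at 0.20 (0.148), and 1217 genes were called. Leaving out 1 replicate at a time gave changes of -3.82 to -1.74 for Gpx2, of 0.24 to 0.28 for Sod1, which never passed, and of -0.55 to -0.47 for Prdx1, with 0 to 2303 genes called in all, 0 to 1 of the 10 genes and 0 to 16 of the partner and pathway genes against 17. The low ends were without replicate 1, where 2512 genes and 2 of the 10 had an unadjusted p under 0.05. The list counts under alternative settings were added after seeing the data. With 1 array per sample and few mice, small differences near background, such as those of Nox1 and Cat, cannot be read.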
